A study of Mus musculus with 4 samples.

Results

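The stretch of mouse chromosome X from 40 Mb to the Dxz4 macrosatellite was followed in Hi-C correlation matrices of female fibroblasts with and without the deacylase SIRT7. Its members are the 100 kb bins that start from 40 Mb to below 75.7 Mb on the mm10 build and hold data in all 4 matrices of that bin size, which left 344 of 357 listed bins, of 1461 such bins on the whole chromosome. Of the 13 bins left out, 10 form a run at chrX:54300001-55300000 over multicopy genes such as Slxl1, and another holds members of the Xlr family, which are expressed in germ cells. The member bins hold the midpoints of 207 protein-coding genes.

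Hi-C records, by ligation and sequencing, which stretches of DNA neighbour each other in nuclei. The cells were tail tip fibroblasts (TTF) of hybrid mus/cas animals, so that reads could be assigned to the copy of chromosome X inherited from either strain. There were 4 samples: 2 wild-type (WT) and 2 Sirt7-/- (KO) replicates, all from females and with no other allele or treatment in the labels. The sources used here give neither ages, the parent of each copy nor the number of animals, and name neither copy as the inactive X. The replicates of a genotype had been combined before deposit into 1 matrix per copy and bin size, so every genotype is represented by a single matrix. No difference below has a replicate check, and no p-value or standard error can be given. Sample labels and file headers describe Hi-C, although the text on the series' design speaks of Xist binding.

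Each matrix entry says how well the contact profiles of its row's bin and its column's bin correlate. An entry is high when both bins contact the same parts of the chromosome. In mammals the active X chromosome alternates between A compartments, which are rich in genes and open, and B compartments, which are poor in genes. The inactive X, coated by Xist RNA, largely loses that pattern and folds into a pair of megadomains that meet at Dxz4, a tandem repeat bound by CTCF on that copy. The region studied here is the end of the left megadomain next to this hinge. It also holds Firre, a long noncoding RNA locus with CTCF-binding repeats that contacts Dxz4 on the inactive X.

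The promoters of 5 genes at which the results turn are shown, with every CpG in capitals, because they range from a CpG-rich housekeeping promoter to a CpG-poor olfactory receptor promoter. Each is the 250 bases before the annotated start, 5′ to 3′, from RefSeq on GRCm38.p6, and all 5 genes matched the promoter table. Brcc3, a deubiquitinase subunit (chrX:75416378-75416627, plus strand), and Vbp1, a prefoldin subunit (chrX:75514047-75514296, plus strand), lie in the bins with the highest boundary scores on WT mus, next to Dxz4. Firre (chrX:50635322-50635571, minus strand) lies beside another boundary. Igsf1, a membrane protein of the immunoglobulin superfamily (chrX:49797746-49797995, minus strand, 1 of 3 listed starts), and the olfactory receptor gene Olfr1320 (chrX:49683254-49683503, plus strand) lie in a run of bins whose compartment score changed sign on the cas copy.
Brcc3: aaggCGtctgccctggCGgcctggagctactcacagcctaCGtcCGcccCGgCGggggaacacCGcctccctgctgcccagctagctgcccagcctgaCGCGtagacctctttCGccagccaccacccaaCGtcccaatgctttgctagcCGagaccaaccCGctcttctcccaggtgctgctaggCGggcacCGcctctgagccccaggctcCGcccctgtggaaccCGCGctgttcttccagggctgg
Vbp1: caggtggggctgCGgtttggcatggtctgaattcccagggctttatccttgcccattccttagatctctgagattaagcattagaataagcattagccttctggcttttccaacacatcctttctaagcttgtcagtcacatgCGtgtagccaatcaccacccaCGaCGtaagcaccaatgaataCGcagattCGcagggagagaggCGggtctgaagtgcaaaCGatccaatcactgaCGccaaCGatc
Firre: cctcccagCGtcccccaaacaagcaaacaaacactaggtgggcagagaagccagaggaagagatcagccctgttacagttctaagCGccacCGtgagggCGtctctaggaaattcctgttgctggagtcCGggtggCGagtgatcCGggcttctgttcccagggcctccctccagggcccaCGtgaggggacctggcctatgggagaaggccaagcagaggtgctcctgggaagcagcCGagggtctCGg
Igsf1: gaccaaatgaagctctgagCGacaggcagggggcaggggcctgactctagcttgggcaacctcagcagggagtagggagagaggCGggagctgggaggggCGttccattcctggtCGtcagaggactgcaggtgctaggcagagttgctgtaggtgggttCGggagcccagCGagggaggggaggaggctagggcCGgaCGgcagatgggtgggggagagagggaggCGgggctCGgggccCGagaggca
Olfr1320: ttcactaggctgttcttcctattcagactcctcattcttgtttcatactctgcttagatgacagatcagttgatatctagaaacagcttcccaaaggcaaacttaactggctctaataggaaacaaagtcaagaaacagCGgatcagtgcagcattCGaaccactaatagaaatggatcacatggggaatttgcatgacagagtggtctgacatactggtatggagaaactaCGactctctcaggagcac
The windows held 18 CpGs for Brcc3, 11 for Igsf1, 10 each for Vbp1 and Firre, and 3 for Olfr1320. Over the 300-base windows of the promoter table, the median was 12.5 CpGs for the 108 promoters in A bins of the region, 6 for the 27 in B bins and 6.5 for the 140 in the other member bins. A stretch resembling the core of the CTCF motif (CC, any 3 bases, AGG, any base and GGC, on either strand) was in 3.44% of the region's 291 promoters and in 3.43% of all 32851 promoters of the genome, and in none of the 5 shown.

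On the mus copy, the region's bins resembled each other and the chromosome to their left, and were unlike the chromosome just right of Dxz4. Over pairs at least 2 Mb apart, the mean correlation within the region was 0.0216 in WT and 0.0155 in KO. The mean with the 232 bins from 0 to 40 Mb was 0.0127 in WT and 0.0106 in KO. With the 342 bins from Dxz4 to 110 Mb the sign turned, to -0.0128 in WT and -0.00879 in KO. With the 276 bins from 140 Mb to the end the mean was above 0 again, at 0.00619 in WT and 0.00866 in KO. At 250 kb that mean went the other way, from 0.0591 in WT to 0.0459 in KO. In WT it was there above the mean with 0 to 40 Mb, 0.0367. Between blocks of 10 Mb, the drop on crossing Dxz4 was steepest next to it, from 0.0242 with the block from 60 to 70 Mb to -0.0185 with the block from 80 to 90 Mb in WT. In KO the same blocks stood at 0.0196 and -0.0117, so the step was smaller from both ends at this bin size. On the cas copy there was no such step. The block from 80 to 90 Mb was there the one most like the region, at 0.0278 in WT and 0.0216 in KO.

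**Figure D1:**
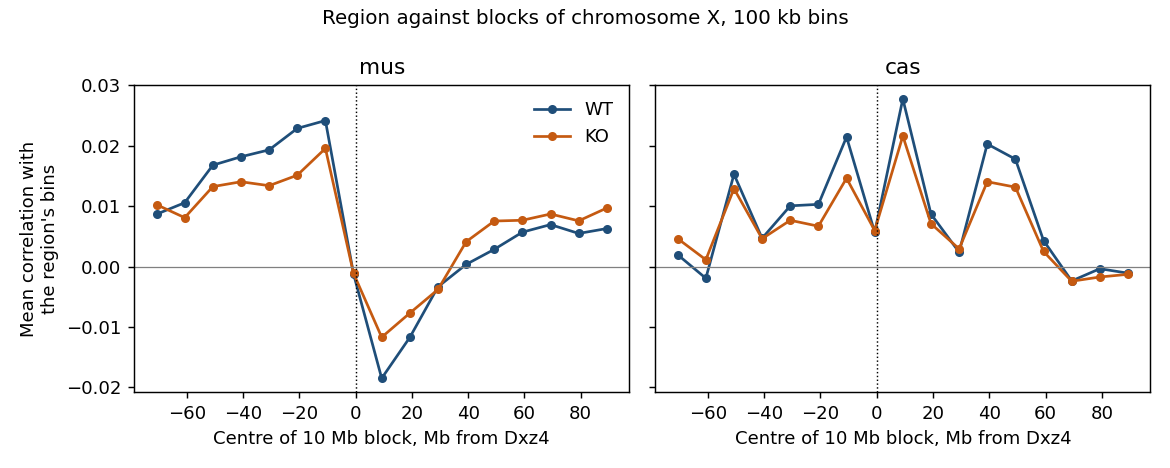
Mean correlation of the region's bins with each 10 Mb block of chromosome X (vertical axis, correlation) against the centre of the block in Mb from Dxz4 (horizontal axis), for WT and KO on the mus copy (left) and the cas copy (right), 1 combined matrix per point, with no error bars because replicates were combined. On mus the line falls below 0 right of Dxz4, is shallower in KO and lies above 0 again from 110 Mb on. On cas the block just right of Dxz4 is the highest.

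The weaker opposition between the region and the stretch beyond Dxz4 was seen at both bin sizes. In 250 kb bins, of which 138 of 142 were members, the mean with Dxz4 to 110 Mb on mus went from -0.0289 in WT to -0.00717 in KO. The region was split into 7 sub-blocks of 5 Mb (the last from 70 to 75.7 Mb). The mean with that stretch was higher in KO in 7 of 7 sub-blocks at 100 kb and in 7 of 7 at 250 kb. Sub-blocks come from the same matrices and are not replicates. Bin by bin, the mean with all bins across Dxz4 was higher in KO at 81.1% of members, against 68.3% of the other bins. At 250 kb the shares were 70.3% and 58.9%. The differences at 100 kb ran from 0.000177 for the sub-block from 65 to 70 Mb to 0.00575 for that from 50 to 55 Mb, which holds Firre. By distance, they were largest close to the hinge. Pairs across Dxz4 that lay 2 to 5 Mb apart had a mean of 0.00203 in WT and 0.0138 in KO. For pairs 20 to 50 Mb apart the means were -0.0137 and -0.00946. On cas, the mean with Dxz4 to 110 Mb went the other way, from 0.0135 in WT to 0.0110 in KO, and 5 of 7 sub-blocks were lower in KO.

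The lower correlation inside the region did not hold at both bin sizes. At 250 kb the mean within it on mus went from 0.0840 in WT to 0.0848 in KO, and with 0 to 40 Mb it was higher in KO too, at 0.0481 against 0.0367. The map of the region against the chromosome showed that on mus the region was not a single block.

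**Figure D2:**
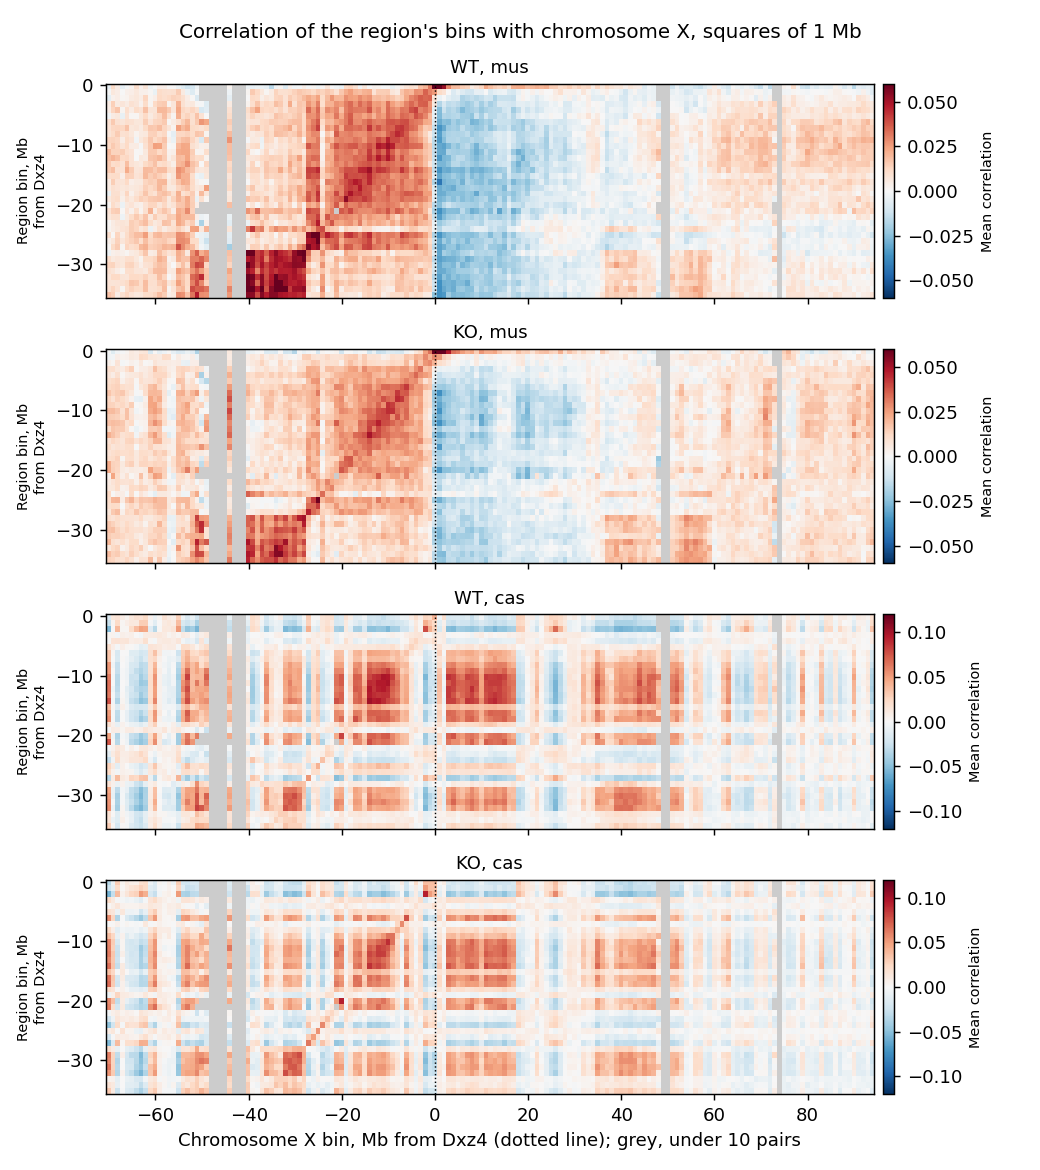
Mean correlation over squares of 1 Mb between the region (vertical axis, Mb from Dxz4) and chromosome X (horizontal axis, Mb from Dxz4) in the 4 matrices of 100 kb bins; red is positive and blue negative, on a wider colour range for cas, and grey marks squares with under 10 pairs of bins. On mus the region splits into a left block that continues beyond its left edge and a longer block that ends at Dxz4, both paler in KO, and on cas both genotypes show a plaid of compartments that crosses Dxz4.

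The line between these blocks lay at the bin of Smarca1 (chrX:47800001-47900000), which encodes an ISWI chromatin remodeler. Its boundary score, how much bins within 1 Mb on the same side correlate beyond those across the bin, went on mus from 0.0446 in WT, above 99.7% of all bins, to 0.0344 in KO. Such a boundary was present on cas too, with a score of 0.0909 in WT and 0.0826 in KO at the same bin. The bin 200 kb to its left, with no protein-coding gene, had the highest boundary score of all bins on WT cas, 0.110, and 0.102 in KO. Splitting the members at the Smarca1 bin was chosen after the map was seen. On mus, the 78 bins from 40 to 47.8 Mb had a mean correlation with each other of 0.0484 in WT and 0.0332 in KO. The 266 bins from there to Dxz4 had 0.0260 in WT and 0.0186 in KO. Pairs of bins from either side of the line had 0.0127 in WT and 0.00933 in KO. Over pairs 2 to 8 Mb apart, a window in which the mean distance was 3.9 Mb in the left block, 4.83 Mb in the right block and 5.49 Mb across the line, the left block had 0.0484, the right block 0.0292 and pairs across the line 0.0137 in WT.

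Within either block, the mus copy was less correlated in KO at both bin sizes. At 250 kb, with the line at the nearest bin edge, the left block went from 0.148 in WT to 0.126 in KO and the right block from 0.111 to 0.103. Across the line the direction depended on the bin size: the mean was lower in KO at 100 kb, as above, and higher at 250 kb, at 0.0379 in WT and 0.0539 in KO. The turn of the region's mean with bin size was thus in the pairs across the Smarca1 line, which also lay further apart. At 250 kb their mean distance was 18.1 Mb, against 3.83 Mb and 10.6 Mb within the blocks. There, KO minus WT over all pairs within the region was -0.0127 at 2 to 5 Mb and 0.0135 at 20 to 50 Mb. Pairs across the line 2 to 8 Mb apart went from 0.0454 to 0.0510. The part of distance was not tested. The left block also reached beyond the region, with a mean of 0.0339 in WT and 0.0244 in KO with the bins from 20 to 40 Mb, where the right block had 0.0128 and 0.0106. At 250 kb the left block's values were 0.108 and 0.0914, whereas the right block went the other way, from 0.0356 to 0.0506. With the bins from 110 to 140 Mb, far beyond Dxz4, the left block on mus had 0.0106 in WT and 0.0145 in KO, and the right block 0.000711 and 0.00390. Within the blocks on cas, the left block had 0.0321 in WT and 0.0358 in KO, and the right block 0.0102 and 0.00657.

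Adjacent bins and the spread of entries also differed between the genotypes. On mus, the mean over adjacent member bins went from 0.0488 in WT to 0.0388 in KO, and the SD of entries within the region was 0.0305 and 0.0290. On cas, adjacent bins went from 0.0637 in WT to 0.0692 in KO. At 250 kb, adjacent bins went from 0.163 to 0.149 on mus and from 0.197 to 0.182 on cas. Read depth is unknown for these matrices, and the part of depth in the lower correlations on mus was not tested. With the KO entries scaled to the SD of WT, the difference within the region on mus was -0.00531, against -0.00610 unscaled.

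Bin by bin, the separation of the region from the right side was smaller in KO on mus at 100 kb, and not clearly so at 250 kb. The left-minus-right score of a bin is its mean correlation with bins left of Dxz4 minus that with bins right of it. Its median over the members was 0.0199 in WT and 0.0126 in KO, and 297 of 344 members (86.3%) were lower in KO. Over all bins, with the score taken as own side minus other side, 72.4% were lower in KO, and 68.1% of the bins outside the region. The share was not above the rest at 250 kb, where 76 of 138 members (55.1%) were lower against 63.0% of all bins and the members' median was 0.0461 in WT and 0.0470 in KO. At 100 kb, 7 members changed sign (2.03%), against 19.2% of all bins. On cas the score was near 0, with medians of -0.000724 in WT and 0.000184 in KO, and 124 of 344 members (36.0%) were lower in KO, against 41.9% of all bins.

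Genes of every list placed in the region followed this direction on mus, as did the members at large, whose median difference was -0.00785. Of the bins of housekeeping and disease genes, 29 of 30 were lower in KO, with a median difference of -0.0102. For matrix, adhesion and cytoskeleton genes it was 14 of 14 bins (-0.0128), for neuronal genes 14 of 15 (-0.00799), for testis and placenta genes 10 of 10 (-0.00843), and for immune and secreted factors 7 of 7 (-0.0118). The same sign was found at 250 kb for 21 of the 30 housekeeping bins, 10 of 14 matrix bins, 11 of 15 neuronal bins, 7 of 10 testis and placenta bins and 7 of 7 immune bins, against 220 of 341 members with a 250 kb bin (64.5%). The largest difference among the lists was at the bin shared by Zdhhc9, a palmitoyltransferase, and Sash3, a lymphocyte adaptor, whose score was 0.0343 in WT and 0.00703 in KO. Plac1, expressed in placenta, went from 0.0277 to 0.00310, and Phf6, a chromatin protein, from 0.0265 to 0.00222. Among matrix, adhesion and cytoskeleton genes, Cd99l2, an adhesion protein, went from 0.0291 to 0.0104 and Fhl1, a LIM protein of muscle and cytoskeleton, from 0.0316 to 0.0138. Bgn, which encodes the matrix proteoglycan biglycan, moved least on that list, from 0.0102 to 0.00716. The exceptions were Slitrk2, a synaptic adhesion protein, which was higher in KO (0.0144 in WT and 0.0245 in KO), and Fmr1, which encodes an RNA-binding protein of synapses (0.0186 and 0.0209).

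Next to Dxz4, the boundary score on mus did not peak at the macrosatellite bin itself, although the correlation with the left side dropped most into that bin. On WT mus, the highest boundary score of all bins lay at chrX:75400001-75500000, the bin of Cmc4, Mtcp1 and Brcc3, with 0.0562 in WT and 0.0436 in KO. The next bin, with Vbp1 and the small GTPase gene Rab39b, had 0.0541 and 0.0359. In KO the highest score of the members was a bin further left, at Fundc2, with 0.0503 in WT and 0.0455 in KO. The bin of 4933407K13Rik, the transcript that hosts Dxz4, starts at 75700001, and its own score was 0.0368 in WT and 0.0171 in KO. The mean correlation with bins left of Dxz4 in WT was 0.00692 at the bin of Fundc2, a mitophagy receptor, then -0.00316 at Brcc3, -0.00275 at Vbp1, -0.00731 in the last member bin and -0.0414 in the Dxz4 bin. Of these steps, that into the Dxz4 bin was the largest. The left-minus-right score in WT also fell there, from -0.0184 in the last member bin to -0.0537. By these measures the sharpest break was at the Dxz4 bin, so the position of the edge depended on the measure. In WT, 3 of 344 members, those from 75400001 on, were more like the right side than the left on mus. In KO there were 10, of which 7 lie next to each other up to Dxz4 from the bin of Gab3, a signalling adaptor, at 75000001. The other 3 start at 51100001 (Mbnl3, a splicing factor), 51900001 and 73800001. At 250 kb, the bin with Brcc3 had a left-minus-right score of -0.0148 in WT and -0.00802 in KO, so the shift toward the right side in KO was not seen there. On cas, the boundary score of the Brcc3 bin was 0.0166 in WT and 0.0134 in KO, near the middle of all bins.

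**Figure D3:**
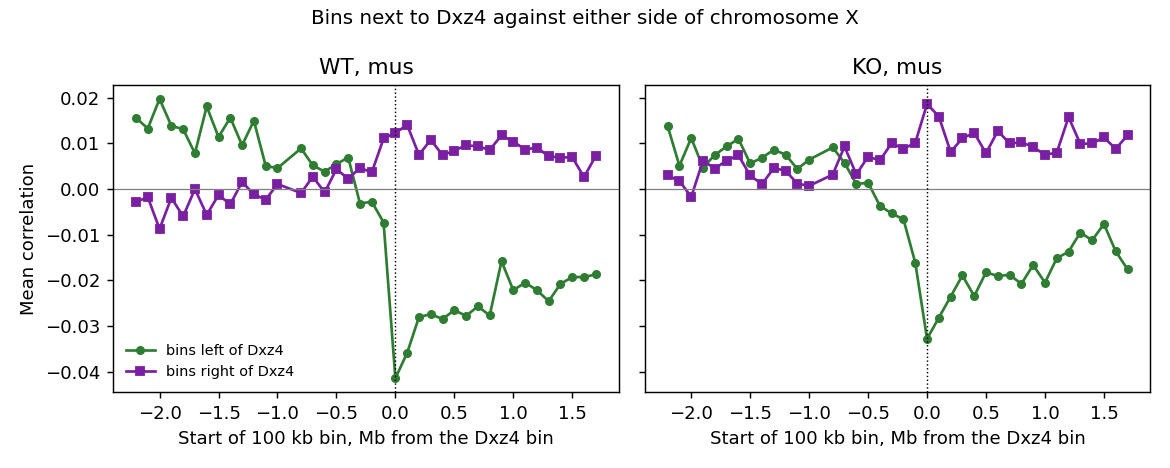
Mean correlation of 100 kb bins with all bins left (circles) and right (squares) of Dxz4 on the mus copy, against the bin's start in Mb from the Dxz4 bin (dotted line), in WT (left) and KO (right). The lines cross left of Dxz4 in both genotypes, between the bins of Fundc2 and Brcc3 in WT and further left in KO.

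Firre lies beside a further boundary on mus. Its bin at 50500001 had a left-minus-right score of 0.0457 in WT and 0.0276 in KO, and the boundary score of the bin 200 kb to its right was 0.0404 in WT and 0.0181 in KO, above 99.5% and 97.0% of all bins. That was a larger difference than at Smarca1. This bin and those of Brcc3 and Smarca1 were picked for high scores in WT, so their lower scores in KO do not stand for boundaries at large. On mus, the boundary score was lower in KO at 162 of 328 members (49.4%), against 50.5% of the other bins. On cas it was lower at 124 of 328 (37.8%), against 45.1%. Firre is known to contact Dxz4 on the inactive X, but a correlation of profiles does not measure contact. On mus the correlation of their profiles was below 0, with a mean over 4 by 3 bins of -0.0572 in WT and -0.0561 in KO. All pairs at the same distance had means of 0.00569 and 0.00471. In single 250 kb bins the pair had -0.0492 in WT and -0.0932 in KO.

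The A/B pattern was read with classes that the cas copy itself set. Bins were classed on cas values of both genotypes, by the leading principal component of their mean matrix: the 20% at its gene-rich end were called A and the 20% at its other end B. A high contrast between the classes on cas follows from that choice, so its size is a description and is not set against that on mus. In the region 54 members were A, with 94 protein-coding genes, 73 were B, with 12, and 217 were neither. The classes were unevenly spread: 37 of the 50 bins from 60 to 65 Mb were B, whereas the last sub-block before Dxz4 had 21 A bins, no B bin and 92 genes. On cas, pairs of A bins had a mean of 0.0526 in WT and 0.0592 in KO, pairs of B bins 0.0727 and 0.0641, and pairs of A with B -0.0495 and -0.0475. The contrast, like minus unlike, went from 0.115 in WT to 0.110 in KO, a ratio of 0.957, which became 1.02 when KO was scaled to the SD of WT. On mus, all 3 kinds of pairs were positive and, at 100 kb, lower in KO: A with A went from 0.0203 to 0.0130, B with B from 0.0284 to 0.0253 and A with B from 0.0213 to 0.0109. At this bin size the difference was largest for unlike pairs, and the contrast on mus went from 0.00408 in WT to 0.00982 in KO. At 250 kb, A with A differed most, from 0.0997 in WT to 0.0763 in KO, A with B went from 0.0802 to 0.0653, and B with B stayed at 0.137. The contrast there was 0.0461 and 0.0545. From Dxz4 to 110 Mb the contrast on mus went the other way, from 0.00939 in WT to 0.00436 in KO, and at 250 kb from 0.0530 to 0.0379.

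**Figure D4:**
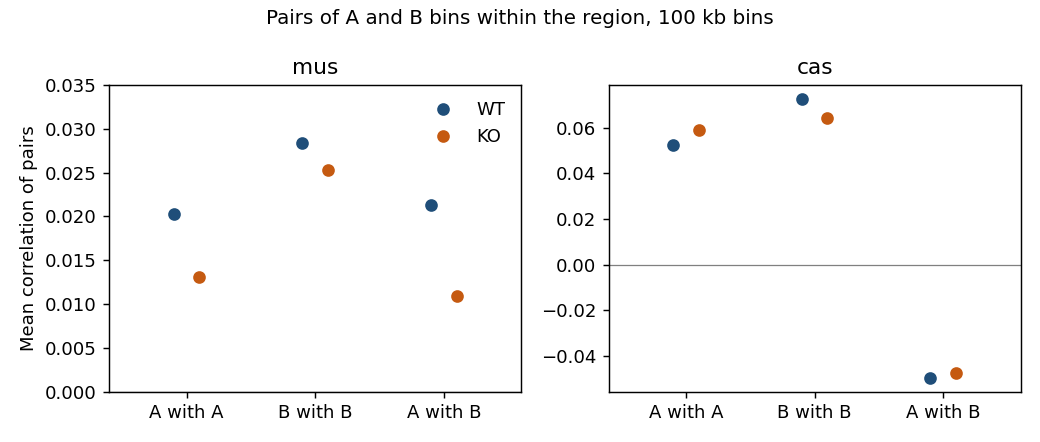
Mean correlation of pairs of bins within the region at least 2 Mb apart, by class of the bins (A with A, B with B, A with B), in WT and KO on the mus copy (left) and the cas copy (right, with its own scale), 1 combined matrix per point. On cas only unlike pairs are below 0, and on mus all 3 kinds lie above 0 and are lower in KO.

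The compartment score of a bin is its mean correlation with all A bins of the chromosome less its mean with all B bins. Its median over the members moved in opposite directions on the copies. On mus the members' median was 0.00633 in WT and 0.00284 in KO, and 283 of 344 members (82.3%) were lower in KO, against 50.5% of all bins and 40.7% of bins outside the region. At 250 kb it was 135 of 138 members (97.8%), against 47.3% of all bins and 31.8% of the others, with medians of 0.0230 and -0.00398. The difference was mainly in the correlations across Dxz4. With classes right of Dxz4 alone, 278 of 344 members (80.8%) were lower in KO, against 54.3% of all bins. With classes left of Dxz4, 169 of 344 (49.1%) were, against 41.2%. The members' median was 0.00936 in WT and 0.00451 in KO with classes right of Dxz4. With classes left of it, the median was -0.00825 and -0.00782. Whether members stood on the A or the B side on mus thus depended on the classes used. At 250 kb the corresponding shares were 99.3% of members against 53.4% of all bins, and 60.9% against 46.4%. The score changed sign on mus at 85 of 344 members (24.7%), against 33.0% of all bins. By the score over all classes, 332 members were on the A side in WT, of which 79 (23.8%) changed to the B side. The other 12 were on the B side, of which 6 changed (50%), against 36.0% of all such bins. Of all bins on the A side in WT, 30.5% changed. At 250 kb, 73 of the 130 members on the A side changed (56.2%), against 39.0% of all such bins. Of the named bins on mus, Ctag2, a testis antigen gene, went from 0.0141 to -0.00515 and Etd, named for testis differentiation, went from 0.0132 to -0.000777. Among gene-bearing bins that moved alike at 250 kb, the largest differences upward, at Vbp1 with Rab39b (-0.00818 in WT and -0.00113 in KO), Mtmr1, a phosphoinositide phosphatase gene (0.00298 and 0.00833), and Mbnl3 (7.09e-05 and 0.00246), were small. On cas the members' median was -0.0650 in WT and -0.0502 in KO, and 119 of 344 (34.6%) were lower in KO, against 41.3% of all bins. Of members without a protein-coding gene 53 of 208 were lower, against 261 of 694 such bins outside the region. Of members with one it was 66 of 136, against 224 of 423. At 250 kb, 34 of 87 members with a gene were lower, although their median went from -0.0695 in WT to -0.103 in KO.

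**Figure D5:**
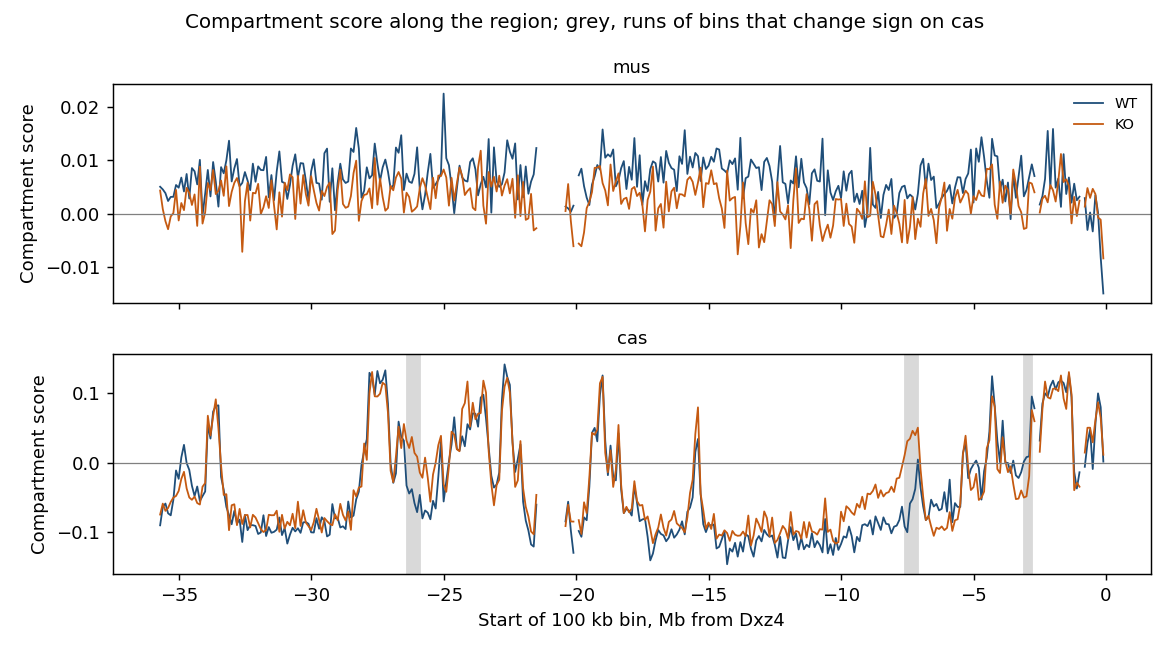
Compartment score of each member bin (vertical axis; above 0 on the A side, below 0 on the B side; the scale of the mus panel is smaller) against its start in Mb from Dxz4, in WT and KO on mus (top) and cas (bottom); gaps are bins left out, and grey marks the 3 runs on cas of at least 3 adjacent bins that changed sign. On mus the KO line runs below the WT line along most of the region, and on cas the lines follow each other, parting in and around the runs and over several Mb left of the second run.

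On cas, the scores followed each other closely apart from a few stretches. The score changed sign at 27 members (7.85%), against 6.09% of all bins. These were 16 of the 253 on the B side in WT (6.32%, against 4.13% of all such bins) and 11 of the 91 on the A side (12.1%, against 9.67%). Runs of at least 3 adjacent bins were formed by 5, 5 and 3 of the 27 members, and were chosen after the values were seen. The run at chrX:49300001-49800000, with Arhgap36, a regulator of hedgehog signalling, Igsf1 and the olfactory receptor genes Olfr1320 and Olfr1321, had a mean score of -0.0488 in WT and 0.0226 in KO. At 250 kb it was -0.173 and 0.0863. Its bins exchanged partners: the mean correlation with A bins went from -0.0182 to 0.0114 and that with B bins from 0.0305 to -0.0112. The profiles of its 5 bins along the chromosome correlated negatively between WT and KO, with a median of -0.167, where the median over the members was 0.512. The runs were picked by a sign change against A and B bins in these same values. Exchanged partners and low profile correlations largely follow from that pick and are no further support. On mus the same bins had 0.00784 in WT and 0.00191 in KO. A sixth bin of this group, that of Olfr1323 at 50000001, went from -0.0685 to 0.00740 on cas. In its 250 kb bin the score stayed below 0, at -0.314 and -0.110, as it did in that of Olfr1321 and Igsf1, at -0.238 and -0.0504.

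The run at chrX:68100001-68600000, which holds no protein-coding gene and ends beside Fmr1, had a mean score on cas of -0.0680 in WT and 0.0324 in KO. In 250 kb bins it was -0.305 and 0.0642. The profiles of its bins had the most negative correlations between WT and KO in the region, with a median of -0.317 and the lowest, -0.326, at 68200001. Low correlations here too largely follow from how the runs were picked. The Fmr1 bin itself was at 0.00462 in WT and 0.0504 in KO. Left of this run the scores climbed toward it in both genotypes, and the gap between them widened. The mean over 10 bins was -0.115 in WT and -0.0981 in KO from 64 to 65 Mb, -0.0999 and -0.0581 from 66 to 67 Mb, and -0.0880 and -0.0376 from 67 to 68 Mb. Aff2, a transcription elongation factor gene to the right of Fmr1, moved the other way, from -0.0422 to -0.0968. The third run, chrX:72600001-72900000 with Gabrq, a GABA receptor subunit gene, went from 0.00633 to -0.0392. Its mean over 2 bins of 250 kb went from 0.0713 to -0.102. However, the 250 kb bin of Gabrq itself stayed above 0, at 0.165 in WT and 0.0345 in KO. Other low changes on cas were at Gpr50, an orphan receptor gene related to melatonin receptors (0.0311 and -0.00910), and Utp14a, a ribosome biogenesis gene (0.132 and 0.0951). In all, 23 of 344 members (6.69%) had WT and KO profiles on cas that correlated below 0, against 26 of the other 1117 bins (2.33%) and 3.35% of all bins. At 250 kb it was 5 of 138 members (3.62%), against 1.87% of all bins, all in or near the first and second runs but for the bin at 40750001.

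The WT and KO matrices resembled each other over the region's pairs with a correlation of 0.547 on cas and 0.141 on mus, and at 250 kb with 0.827 and 0.507. Both values were higher in the larger bins, and the part of read depth in this was not tested. Over pairs within the region, the correlation of the mus with the cas matrix was 0.0863 in WT and 0.0995 in KO, and 0.248 and 0.304 at 250 kb. For the profiles of single members along the chromosome, the median correlation of mus with cas went from 0.00106 in WT to 0.0198 in KO, and at 250 kb from 0.0239 to 0.128. From Dxz4 to 110 Mb that median went from 0.0383 in WT to 0.0147 in KO, and at 250 kb from 0.120 to 0.0827. Both directions held at both bin sizes, and no test of the difference could be made with 1 matrix per genotype.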

How the data were processed

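Per the labels' protocols, fixed chromatin was digested with HindIII, labelled with biotin at the cut ends and ligated inside nuclei. Tools named in the submitters' processing notes, without versions, are Bowtie2, cutadapt, Juicer and HOMER, and the build is mm10. The authors deposited 8 matrices of chromosome X, 1 per genotype, copy and bin size (100 kb and 250 kb), with values of the unit score, a correlation of contact profiles, per the file headers. Replicates of a genotype had been combined, and the sources used here give no contact normalization, allele assignment or read numbers, so depth is unknown. Noise lowers a correlation, more so in smaller bins.

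Bins that are all 0 in any of the 4 matrices of a size were left out. Main values are means over 100 kb pairs at least 2 Mb apart, computed with Python 3.11.15, numpy 2.4.6 and pandas 2.3.3, and the 250 kb matrices are the check. With 1 matrix per genotype no test between genotypes was possible. Functions were tested on simulated matrices with known answers. Genes were placed by midpoints from RefSeq on GRCm38.p6, the same build.

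The members and the 6 gene lists (structural loci, here Firre, and the 5 lists named in the results) were chosen with earlier results of these data known. The genes named are Firre and the Dxz4 host transcript, the 2 highest and 2 lowest of each list by change of the left-minus-right score on mus, on each copy the 3 bins with genes whose compartment score changed most upward and the 3 most downward, with the same sign at 250 kb, and the 3 highest boundary scores in WT per copy. Some that this rule selects are not reported here, and further genes were named for their position or with their values known. Settings also tried were the bin size, a minimum distance of 5 Mb, KO scaled to the SD of WT, removal of each distance's mean, leaving out the 10% weakest bins or the 5 Mb before Dxz4, rank correlation, classes of 10% and, added after the data were seen, classes from a single side of Dxz4.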

Additional observations from a re-analysis of the deposited data

Results flagged for a closer look

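For 5 measures, KO minus WT had opposite signs on the mus and cas copies at both bin sizes. The difference between the copies was not tested, since each is 1 combined matrix. The mean correlation of member bins with bins right of Dxz4 changed by 0.00331 on mus and -0.00240 on cas, and at 250 kb by 0.00742 and -0.0107. Against Dxz4 to 110 Mb alone it changed by 0.00396 on mus and -0.00247 on cas. Against 140 Mb to the end it changed on mus by 0.00247, but by -0.0132 at 250 kb. The ratio of the A/B contrast in KO to that in WT within the region was 2.41 on mus and 0.957 on cas, and at 250 kb 1.18 and 0.917. The median over the members of each bin's change in compartment score was -0.00379 on mus and 0.00846 on cas. At 250 kb it was -0.0292 and 0.0378. The median of each bin's change in left-minus-right score was -0.00785 on mus and 0.00143 on cas, and at 250 kb -0.00162 and 0.0118. On mus at 250 kb the median score itself went the other way, from 0.0461 in WT to 0.0470 in KO.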

How the results depend on the processing

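Of 64 values of the 10 main comparisons under other settings, 47 kept their direction within 1.5 times of the main value, 14 kept it beyond that and 3 changed direction. Entries of the 250 kb matrices are larger, so sizes shift there whatever the direction. At 250 kb, KO minus WT on mus was 0.000835 within the region and 0.0115 with 0 to 40 Mb, both reversed, and 0.00742 with bins right of Dxz4. On cas these were -0.00690, 0.00878 and -0.0107. The WT to KO matrix correlation at 250 kb was 0.507 on mus and 0.827 on cas, and the A/B ratio on mus 1.18. Subtracting the mean of each distance gave -0.00204, -0.00346 and 0.00136 on mus for the same 3 means, and -0.00147 within the region and 0.00235 with 0 to 40 Mb on cas. Without the 5 Mb before Dxz4, the difference within the region on cas was -0.00576. At a minimum distance of 5 Mb the A/B ratio on mus was 399, because the contrast in WT was 1.51e-05 there, so this ratio carries no size. Scaling KO to the SD of WT gave an A/B ratio on cas of 1.02. Classes left of Dxz4 alone gave a median compartment change of 0.000114 on mus. The other causes of these changes were not tested. No paired analysis was possible because the deposited matrices combine the replicates of each genotype, and no replicate was left out for the same reason. Classes by GC content were not run, since no genome sequence was at hand. Read depth is unknown, and its part in these values was not tested.

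For single bins, the left-minus-right change on mus turned at 250 kb for Bgn (0.000998), Gabrq (0.00831), Magea10 (0.0152), Ctag2 (0.00946), 3830403N18Rik (0.00976), Mbnl3 (0.0122), Olfr1320 (0.00445), Brcc3 (0.00674), G6pdx (0.00839) and the bin at 47600001 (0.00117). After subtraction of the mean of each distance it turned for 3830403N18Rik (0.000756), Cxx1a (0.000244) and the bin at 71200001 (1.71e-05). The compartment change on cas turned at 250 kb for Cxx1a (-0.0341), Brcc3 (0.0187), G6pdx (-0.0272) and the bins at 50700001 (-0.0382) and 71200001 (-0.0411). It turned under the SD scaling for Zdhhc9 (0.00398), Fhl1 (0.00614), Plac1 (0.00660) and 3830403N18Rik (-0.00281), and with classes of 10% for Fhl1 (0.000112) and Plac1 (0.00203).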
